A study of Saccharomyces cerevisiae with 2 samples.

Results

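The autophagy genes that carry an *ATG* name followed by a number were examined in 2 yeast strains, ZK2 and BYZ1. A gene was a member if its symbol in the deposited table of either strain had this form, which gave 27 genes of the 5699 listed in at least 1 table. All 27 were listed in both tables, so none was at 0 reads, and they lie on 13 chromosomes. ZK2 is labelled a bioethanol strain, and its genotype and ploidy are not given in the sources used here. BYZ1 is labelled a laboratory strain and is a diploid derived from S288c, with the genotype MATa/MATalpha his3Δ1/his3Δ1 leu2Δ0/leu2Δ0 lys2Δ0/+ met15Δ0/+ ura3Δ0/ura3Δ0. Both were grown in 25 mL of YPD at a starting OD600 of 0.05, and total RNA was taken in early stationary phase, with no treatment in either. According to the labels the medium held, per litre, 10 g of yeast extract and 20 g each of peptone and glucose for ZK2, and 1, 2 and 2 g of these for BYZ1. The study's methods give a single YPD recipe, the one on the ZK2 label, so whether the media differed is not settled. Strain, library, growth stage at harvest and any difference in medium or read alignment cannot be told apart in this design.

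Each strain had 1 library, of about 4570000 uniquely mapped gene reads for ZK2 and 4690000 for BYZ1, with a median of 204 and 230 reads per gene. No test between the strains is therefore given. Levels are RPKM, that is reads scaled to the coding length of the gene and the total of gene reads in the library, with the exact Poisson 95% interval of the reads. Ratios are RPKM of ZK2 over RPKM of BYZ1, with an exact binomial 95% interval. These intervals cover counting error only, and copies made by PCR cannot be told from separate molecules. The 5 auxotrophic markers of the BYZ1 genotype were read as a check of the label. *URA3* had 123 reads in ZK2 and 0 in BYZ1, which allows an RPKM of up to 0.796 in BYZ1 (3 reads), and *LEU2* had 360 reads in ZK2 and 1 in BYZ1, as deletion of both copies in BYZ1 would give. *HIS3*, whose his3Δ1 allele lacks part of the gene, had 159 reads in ZK2 and 156 in BYZ1 (ratio 1.05, 0.833 to 1.31) and did not separate the strains. Of the markers deleted on a single homolog, *LYS2* had 993 reads in ZK2 and 451 in BYZ1 (2.26, 2.02 to 2.53), while *MET15*, listed as *MET17*, ran the other way, with 43 reads in ZK2 and 145 in BYZ1 (0.304, 0.211 to 0.430). Genes of mating type and haploid cells stayed at an RPKM of 11.2 or less in ZK2 and 23.1 or less in BYZ1. Across the 5080 genes that reached an RPKM of 10 in either library, the log2 ratio of RPKM plus 1 had a median of -0.17, so values below are also set against that shift.

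Macroautophagy is the pathway by which a cell encloses cytoplasm in a double membrane, the autophagosome, and delivers it to the vacuole for breakdown. In yeast it is held at a low rate during growth on rich medium, where the TORC1 kinase phosphorylates Atg13, and it is induced by nitrogen starvation and on entry to stationary phase. A kinase complex starts the process, a lipid kinase and membrane carriers build the cup-shaped phagophore, a pair of ubiquitin-like conjugation systems attaches Atg8 to its membrane, and vacuolar enzymes and transporters break down the content and return it to the cytosol. Selective forms use receptors that tie a cargo, such as mitochondria or the aminopeptidase Ape1, to Atg8 and Atg11. Transcription of *ATG8* is known to be repressed by Ume6 with Sin3 and Rpd3 and released by the kinase Rim15.

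The start regions of 2 members are shown because the results refer back to them: *ATG22*, the one member called different between the strains, and *ATG8*, which holds the core letters of a Ume6 site in the window. Each window runs from 250 bases before to 50 bases after the coding start and was read 5′ to 3′ on the coding strand of the reference strain S288c (RefSeq R64), not of ZK2 or BYZ1. Capitals mark any match, on either strand, to the core of the Ume6 site (GCCGCC), to the stress element bound by Msn2 and Msn4 (AGGGG), to the Gcn4 site (TGACTCA) or to the site of Gln3 and Gat1 (GATAAG). The windows are chrIII:56478-56777 on the minus strand for *ATG22* and chrII:80682-80981 on the minus strand for *ATG8*.
ATG22: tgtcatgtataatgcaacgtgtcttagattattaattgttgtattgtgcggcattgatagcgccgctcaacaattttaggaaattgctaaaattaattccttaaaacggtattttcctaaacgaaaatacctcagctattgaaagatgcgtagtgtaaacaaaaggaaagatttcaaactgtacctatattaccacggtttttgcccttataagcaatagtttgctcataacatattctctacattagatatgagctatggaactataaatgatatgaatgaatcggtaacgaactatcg
ATG8: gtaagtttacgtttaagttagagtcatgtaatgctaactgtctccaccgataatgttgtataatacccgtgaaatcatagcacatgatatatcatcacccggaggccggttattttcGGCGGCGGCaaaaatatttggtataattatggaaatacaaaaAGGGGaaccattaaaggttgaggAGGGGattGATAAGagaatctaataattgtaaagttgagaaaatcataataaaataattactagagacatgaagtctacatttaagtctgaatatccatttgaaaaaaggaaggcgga

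The *ATG22* window held none of these letters. The *ATG8* window held the Ume6 core at 133 and 130 bases before the start, 2 matches that overlap, followed by the stress element at 91 and 68 bases and the Gln3 letters at 60 bases before it. Of the 27 members, 2 (7.4%, *ATG8* and *ATG19*) held GCCGCC, against 5.1% of all 6020 R64 promoter windows of this length. AGGGG was in 6 members (22.2%, against 21.6%), TGACTCA in 2 (7.4%, against 2.7%; *ATG13* and *ATG29*) and GATAAG in 9 (33.3%, against 14.6%). A match is a description of the reference letters and not a measured binding site.

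Most *ATG* transcripts were of middling abundance in both strains. The 27 genes took 10669 reads in ZK2 and 11625 in BYZ1, or 0.233% and 0.248% of each library. Their median RPKM was 34.7 in ZK2 and 36.8 in BYZ1, against 33.9 and 37.2 for all listed genes, and 14 members lay above the library median in ZK2 and 13 in BYZ1. *ATG33*, which encodes a mitochondrial outer membrane protein needed for mitophagy, had the highest level in both, at 764 RPKM in ZK2 (731 to 797) and 743 in BYZ1 (711 to 776). It alone gave 19.4% of the member reads in ZK2 and 17.8% in BYZ1. Next in ZK2 came *ATG8* (201 RPKM), *ATG15* (182) and *ATG19* (162), and in BYZ1 *ATG8* (243), *ATG19* (198) and *ATG15* (127). In ZK2 the interval of *ATG15* overlapped those of both *ATG8* and *ATG19*, while in BYZ1 these 3 genes were separated from each other. *ATG14* was lowest in ZK2 (6.55 RPKM, 31 reads) and *ATG10* in BYZ1 (8.04 RPKM, 19 reads). Counting intervals of neighbours in the order overlapped in 20 of 26 pairs in ZK2 and 22 of 26 in BYZ1, so most of the middle order is not resolved. Over the 27 genes the levels of the strains had a Spearman rho of 0.834, a description of genes that share the same 2 libraries.

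**Figure D1:**
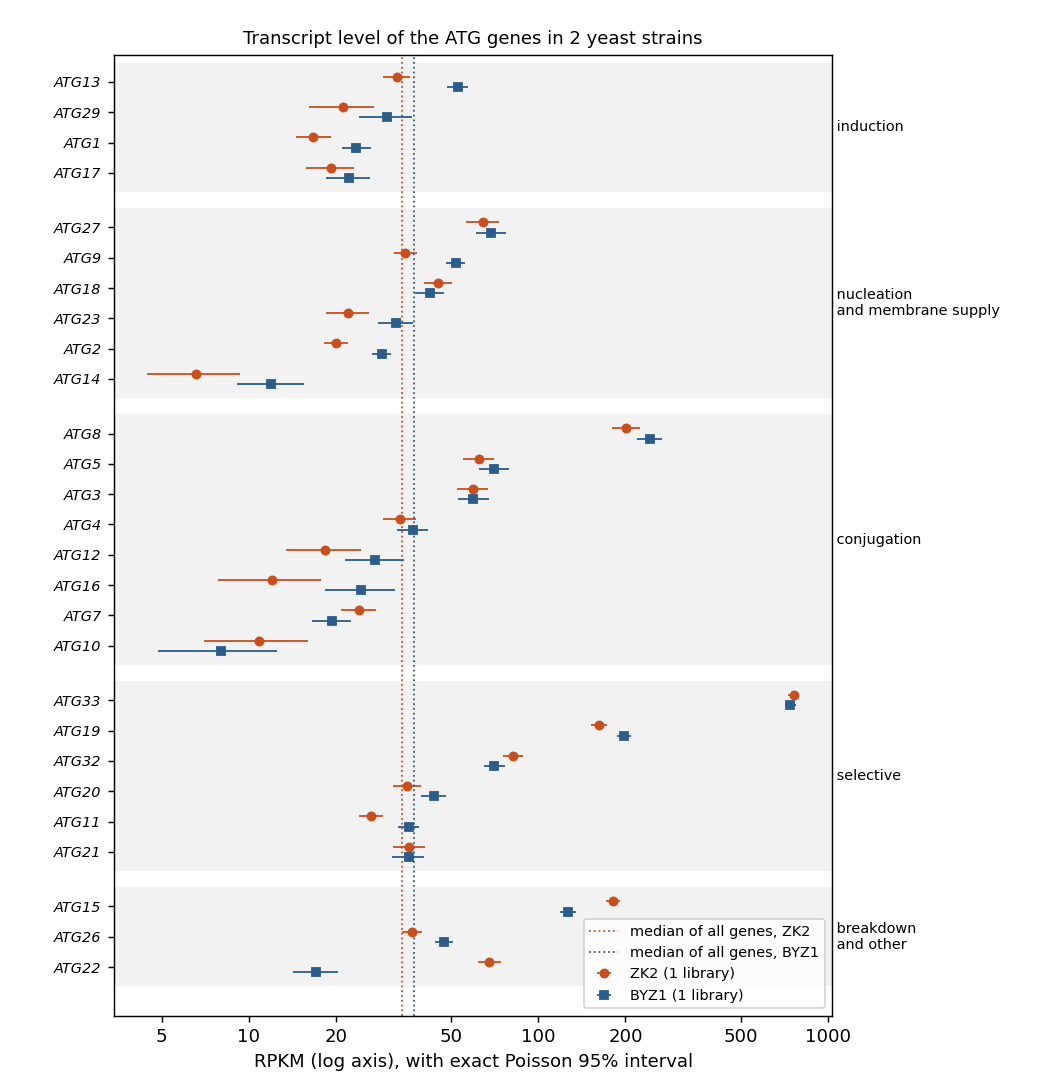
RPKM of the 27 *ATG* genes on a log axis, grouped by step, with orange circles for ZK2 and blue squares for BYZ1 (1 library each), bars for the exact Poisson 95% interval and dotted lines for the median of all listed genes in each library (33.9 and 37.2). *ATG33* stands at the top in both strains, and *ATG22* shows the widest gap between them, at 67.8 RPKM in ZK2 against 17.1 in BYZ1.

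Between the strains, 1 of the 27 members was called higher in ZK2 at a log2 ratio of 1 or more, *ATG22*, and 0 were called lower at -1 or less. Among all 5080 genes the same thresholds called 402 genes higher (7.91%) and 524 lower (10.3%), and on the TMM scale, which trims extreme genes before setting the libraries equal, 536 higher and 339 lower. The median log2 ratio of the members was -0.27, or -0.10 relative to the median of all genes, and -0.28 without *ATG22*. Of the 27, 19 lay below a log2 ratio of 0, where 59.8% of all genes lay, and 8 above, and 16 lay below the median of all genes and 11 above. The range ran from -0.96 for *ATG16* to 1.93 for *ATG22*, with *ATG15* next at 0.52. By counting error alone, the ratio interval lay wholly above 1 for 4 members (*ATG7*, *ATG15*, *ATG22* and *ATG32*), or 14.8%, against 27.0% of all genes, and wholly below 1 for 14, or 51.9%, against 44.1%. When set against the TMM scale, a ratio of 0.885, 6 members (22.2%) lay wholly above it, against 35.3% of all genes, and 9 (33.3%) wholly below, against 34.2%. On that scale the share of members below was close to that of all genes.

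**Figure D2:**
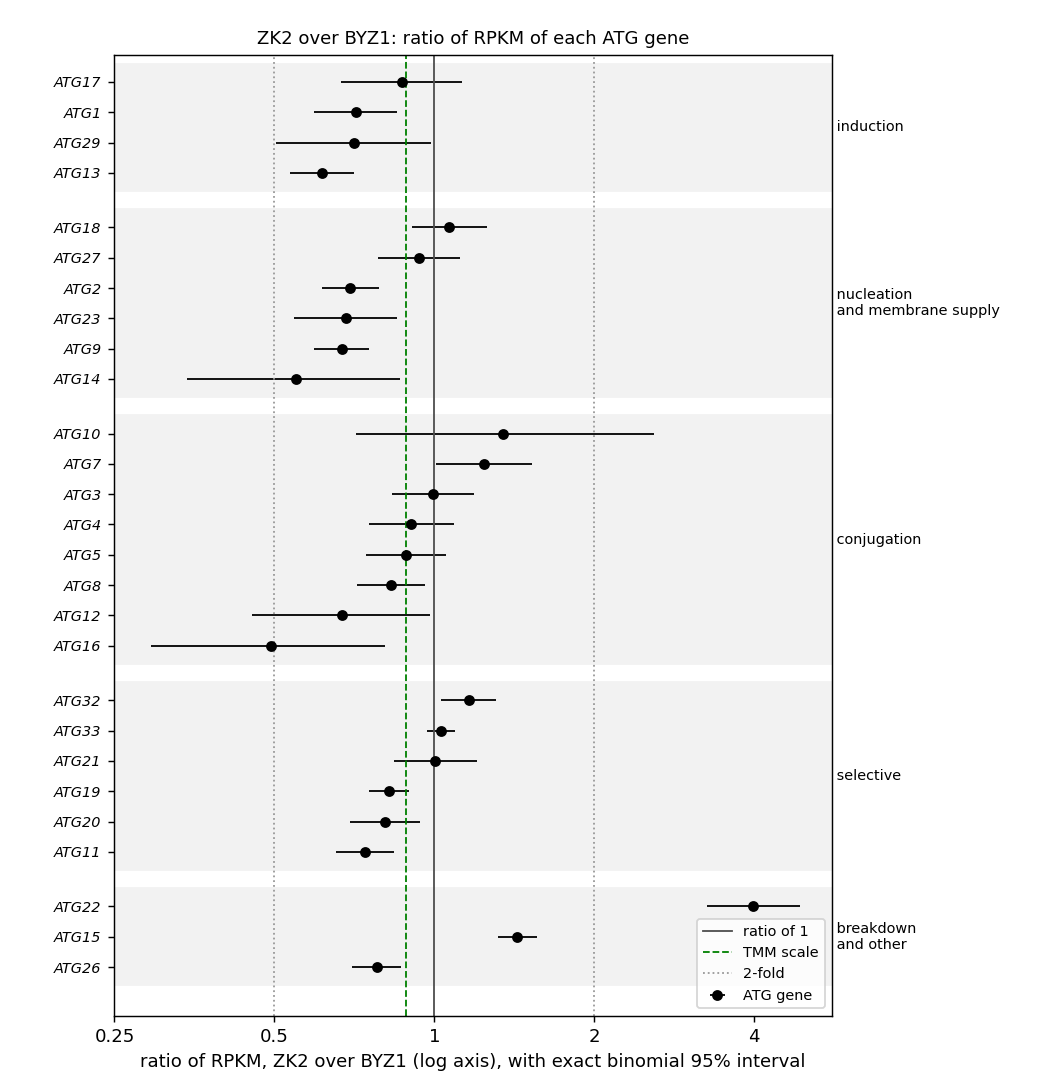
Ratio of RPKM, ZK2 over BYZ1, for each *ATG* gene on a log axis with its exact binomial 95% interval. The solid line marks a ratio of 1, the dashed line the TMM scale (0.885) and the dotted lines 2-fold differences, and only *ATG22* (3.97) lies with its whole interval beyond 2-fold.

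*ATG22* showed the one large difference. It encodes a vacuolar membrane protein that, with Avt transporters, exports amino acids released by breakdown of autophagic bodies. It had 492 reads and 67.8 RPKM in ZK2 (62.0 to 74.1), against 127 reads and 17.1 RPKM in BYZ1 (14.2 to 20.3). The ratio was 3.97 (3.26 to 4.87), above that of 97.9% of all genes tested, and the intervals of the levels did not overlap. It stood sixth of the 27 members in ZK2 and 25th in BYZ1, and its reads covered 99.3% of the coding length in ZK2 and 84.8% in BYZ1. The gene lies on chromosome III, from 54941 to 56527 on the minus strand in sacCer2, and its neighbours did not share the difference. *GID7*, 58 bp from it in R64, had a ratio of 0.774 (0.703 to 0.853) and *SRO9*, 846 bp away on the side of the start, one of 0.803 (0.631 to 1.02). The 131 tested genes of chromosome III had a median log2 ratio of 0.11, against -0.17 for all genes.

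*ATG15*, the other member on this chromosome, encodes the lipase that breaks the membrane of autophagic bodies inside the vacuole. It had 182 RPKM in ZK2 (172 to 192) and 127 in BYZ1 (119 to 135), a ratio of 1.43 (1.32 to 1.56), short of 2-fold. Its neighbours in R64, *SED4* and *CPR4*, had ratios of 1.75 (1.58 to 1.94) and 1.47 (1.38 to 1.56). The within-library ratio of *ATG22* to *ATG15* in RPKM was 0.374 in ZK2 (0.336 to 0.415) and 0.135 in BYZ1 (0.111 to 0.162), so the transporter transcript stood closer to the lipase transcript in ZK2. *ATG26*, which encodes the sterol glucosyltransferase that *Pichia pastoris* needs for degradation of peroxisomes, differed in the other direction, at 36.7 RPKM in ZK2 and 47.2 in BYZ1 (ratio 0.779, 0.700 to 0.867).

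All 4 genes of the induction complex had a ratio under 1, the side where 59.8% of all genes lay. Of the 4 ratio intervals, 3 lay wholly below 1 (44.1% of all genes). Those of *ATG1* and *ATG13* also lay below the TMM scale (34.2%). *ATG13*, the regulatory subunit on which TORC1 acts, had 32.5 RPKM in ZK2 (29.1 to 36.2) and 52.7 in BYZ1 (48.4 to 57.3), a ratio of 0.616 (0.535 to 0.707). *ATG1*, the protein kinase of the complex, had 16.7 RPKM in ZK2 and 23.5 in BYZ1, a ratio of 0.711 (0.592 to 0.852). *ATG29*, a partner of the scaffold, had 21.1 RPKM in ZK2 and 29.9 in BYZ1, a ratio of 0.706 (0.503 to 0.987). *ATG29* and *SET6* overlap by 24 bp in R64 and the strand of the reads is not stated, so reads from the overlap cannot be assigned. *ATG17*, the scaffold itself, had 19.2 RPKM in ZK2 and 22.1 in BYZ1, a ratio of 0.868 with an interval that included 1 (0.667 to 1.13). The median log2 ratio of the 4 was -0.48. In both strains *ATG13* was the most abundant of them, at 1.69 times the RPKM of *ATG17* in ZK2 and 2.38 times in BYZ1.

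Among the 6 genes of nucleation and membrane supply, 4 had ratio intervals wholly below 1 (44.1% of all genes), and the same 4 below the TMM scale (34.2%), and the median log2 ratio was -0.52. *ATG9*, a multispanning lipid scramblase carried on vesicles, had 34.7 RPKM in ZK2 (31.7 to 38.0) and 51.9 in BYZ1 (48.2 to 55.8), a ratio of 0.669 (0.595 to 0.752). *ATG2*, which encodes the lipid transfer protein at the phagophore edge and is the longest member at 4779 bp, had 20.0 RPKM in ZK2 and 28.8 in BYZ1 (ratio 0.695, 0.614 to 0.786). *ATG18*, the phosphoinositide-binding partner of Atg2, did not follow it, with 45.1 RPKM in ZK2 and 42.3 in BYZ1 (ratio 1.07, 0.907 to 1.25). The genes for the Atg9 trafficking factors also parted: *ATG23* had 22.0 RPKM in ZK2 and 32.3 in BYZ1 (0.682, 0.545 to 0.851), and *ATG27* had 64.3 in ZK2 and 68.8 in BYZ1 (0.936, 0.782 to 1.12). *ATG14*, the subunit that directs the lipid kinase Vps34 to autophagy, had a ratio of 0.548 (0.342 to 0.862) on 31 reads in ZK2 and 58 in BYZ1, with 74.2% and 73.8% of its length covered, the lowest coverage of any member in either library.

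The 8 conjugation genes had a median log2 ratio of -0.16, close to that of all genes. *ATG8*, the ubiquitin-like protein joined to phosphatidylethanolamine, had 201 RPKM in ZK2 (180 to 225) and 243 in BYZ1 (220 to 268), a ratio of 0.829 (0.715 to 0.962), which included the TMM scale. The enzymes that act on Atg8 were less abundant. *ATG3*, its conjugating enzyme, had 59.3 RPKM in ZK2 and 59.7 in BYZ1, and *ATG4*, the protease that trims and releases it, had 33.3 in ZK2 and 36.8 in BYZ1. *ATG7*, the activating enzyme of both systems, had 24.0 RPKM in ZK2 (20.9 to 27.5) and 19.4 in BYZ1 (16.6 to 22.5), a ratio of 1.24 (1.01 to 1.53). The RPKM of *ATG8* was 8.38 times that of *ATG7* in ZK2 (7.02 to 10.0) and 12.5 times in BYZ1 (10.5 to 15.1).

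In the Atg12 system, *ATG5*, the acceptor, was the most abundant, at 62.3 RPKM in ZK2 and 70.4 in BYZ1 (ratio 0.885, 0.745 to 1.05). *ATG12*, its ubiquitin-like modifier, had 18.3 RPKM in ZK2 and 27.4 in BYZ1 (0.669, 0.453 to 0.980). *ATG16*, which binds the conjugate and pairs it into a dimer of complexes, had 12.1 RPKM in ZK2 (7.81 to 17.8) and 24.5 in BYZ1 (18.3 to 32.1). Its ratio of 0.493 (0.293 to 0.809) was the lowest of all members but rested on 25 reads in ZK2 and 52 in BYZ1, and its log2 ratio of -0.96 with the pseudocount of 1 fell short of the threshold. *ATG10*, the conjugating enzyme of Atg12, had 25 reads in ZK2 and 19 in BYZ1, so its ratio of 1.35 (0.714 to 2.59) gave no direction at this depth. *ATG5* had 5.16 times the RPKM of *ATG16* in ZK2 (3.42 to 8.13) and 2.87 times in BYZ1 (2.13 to 3.94), intervals that overlapped.

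The 6 genes of selective autophagy included the most abundant member and had log2 ratios from -0.42 to 0.21, with a median of -0.14. *ATG33*, which had the most reads of any member (2074 in ZK2 and 2068 in BYZ1), had a ratio of 1.03 (0.967 to 1.09), an interval that included 1 and lay above the TMM scale. *ATG32*, the mitophagy receptor, had 81.9 RPKM in ZK2 (75.4 to 88.7) and 70.6 in BYZ1 (64.7 to 76.9), a ratio of 1.16 (1.03 to 1.31). *ATG19*, the receptor that carries Ape1 and Ams1 in the cytoplasm-to-vacuole targeting pathway, had 162 RPKM in ZK2 and 198 in BYZ1, a ratio of 0.821 (0.752 to 0.896). *ATG11*, the scaffold on which the receptors meet the Atg1 kinase, had 26.4 RPKM in ZK2 and 35.6 in BYZ1 (0.741, 0.653 to 0.840). Of the 2 lipid-binding factors of the targeting pathway, the sorting nexin gene *ATG20* had 35.3 RPKM in ZK2 and 43.6 in BYZ1 (0.809, 0.695 to 0.941), and *ATG21* had 35.8 in ZK2 and 35.6 in BYZ1 (1.00, 0.839 to 1.20).

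**Figure D3:**
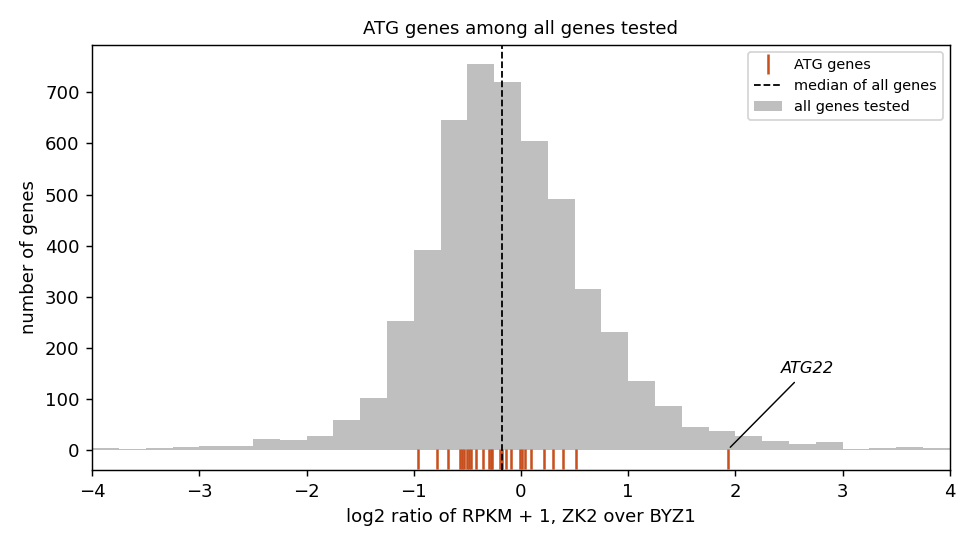
Histogram of the log2 ratio of RPKM plus 1, ZK2 over BYZ1, for the 5080 genes tested (grey, drawn from -4 to 4), with the 27 *ATG* genes as orange ticks under the axis and the median of all genes (-0.17) as a dashed line. The *ATG* genes lie within the bulk between -0.96 and 0.52 except *ATG22*, at 1.93.

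A further 12 genes that R64 names as *ATG* genes were listed in the tables under other symbols and fall outside the rule. All 12 passed the filter and 0 were called in either direction, against 7.91% of all genes higher and 10.3% lower. Of their log2 ratios, 8 lay below 0, where 59.8% of all genes lay, and 4 above, with a median of -0.26. *ATG34*, a receptor of Ams1 related to *ATG19* and its neighbour on chromosome XV, had 109 RPKM in ZK2 and 203 in BYZ1, a ratio of 0.536 (0.486 to 0.591) that lay below that of *ATG19*. *ATG36*, the pexophagy receptor, had 147 RPKM in ZK2 and 87.3 in BYZ1 (1.68, 1.47 to 1.92). *ATG42*, a vacuolar carboxypeptidase, had 394 RPKM in ZK2 and 295 in BYZ1 (1.33, 1.26 to 1.41). *ATG31*, which links Atg29 to Atg17, had 37.8 RPKM in ZK2 and 57.4 in BYZ1 (0.658, 0.508 to 0.849). All 5 genes of the induction complex were thus under a ratio of 1, as were 59.8% of all genes. *ATG38*, a subunit of the Vps34 complex with Atg14, had 16.1 RPKM in ZK2 and 31.3 in BYZ1 (0.513, 0.358 to 0.727).

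Genes that work with the *ATG* products are set beside the calls over all genes, 7.91% higher and 10.3% lower. In lists this short, 0 calls is not far from those shares. Of 14 partners listed without an *ATG* symbol, such as the lipid kinase *VPS34*, its subunits and the vacuolar fusion machinery, 12 passed the filter and 0 were called, with a median log2 ratio of -0.11. The 14 include *VPS30* (also *ATG6*) and *SNX4* (also *ATG24*), which were counted among the further *ATG* genes above too. The partners ran from *VAM7*, a vacuolar SNARE (14.0 RPKM in ZK2 and 22.4 in BYZ1), to *YPT7*, the vacuolar Rab GTPase (90.7 in ZK2 and 64.7 in BYZ1). Of 4 vacuolar hydrolase genes 0 were called, with a median of -0.03. *PRC1*, carboxypeptidase Y, had 3032 RPKM in ZK2 and 2031 in BYZ1. All 4 cargo genes of selective transport to the vacuole had ratio intervals below 1 (44.1% of all genes), and 3 of them, without *AMS1*, also below the TMM scale (34.2%). Of the 4, 1 was called lower (10.3% of all genes), *LAP3*, a cysteine aminopeptidase, with 197 RPKM in ZK2 and 542 in BYZ1 (ratio 0.364, 0.341 to 0.389). *APE1*, listed as *LAP4*, had 156 RPKM in ZK2 and 213 in BYZ1, a ratio of 0.734 (0.679 to 0.794). The members that carry Ape1, *ATG19* and *ATG11*, had ratios of 0.821 and 0.741.

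Of 14 genes of TORC1 and nutrient signalling, 13 had a log2 ratio below 0, where 59.8% of all genes lay, and 10 lay below the median of all genes. Their median was -0.32, 7 of the 14 ratio intervals lay below the TMM scale (34.2% of all genes), and 1 gene was called lower (10.3% of all genes). This was *IML1*, a subunit of the SEACIT complex that restrains TORC1, with 14.4 RPKM in ZK2 and 31.8 in BYZ1. Among 11 transcription regulators of *ATG* genes, 1 was called higher and 3 lower, against the 7.91% and 10.3% of all genes. *MSN4*, a stress activator, had 115 RPKM in ZK2 and 46.1 in BYZ1 (ratio 2.50, 2.23 to 2.81). *UME6* had 31.8 RPKM in ZK2 and 79.6 in BYZ1 (0.399, 0.353 to 0.451), *RIM15* 13.7 in ZK2 and 33.5 in BYZ1 (0.409, 0.359 to 0.465) and *PHO23*, a subunit of the Rpd3 complex, 28.9 in ZK2 and 62.5 in BYZ1 (0.462, 0.373 to 0.569). *SIN3* had 41.8 RPKM in ZK2 and 82.1 in BYZ1 (0.509, 0.469 to 0.552), short of the threshold. *RPD3* itself had 39.5 in ZK2 and 34.4 in BYZ1 (1.15, 0.949 to 1.39), an interval that included 1. *UME6* lies in a stretch of chromosome IV that the study describes as amplified in BYZ1, in a comparison with the strain YJS329. The part of copy number in the *UME6* ratio was not tested. *ATG8* and *ATG19*, the 2 members with the Ume6 core letters, had ratios of 0.829 and 0.821. *GCN4* had 3533 RPKM in ZK2 and 1965 in BYZ1 (1.80, 1.75 to 1.85), and the 2 members with its site letters, *ATG13* and *ATG29*, had ratios of 0.616 and 0.706. *GLN3* had a ratio of 0.560 (0.467 to 0.671) and *GAT1* a ratio of 1.04 (0.960 to 1.13). The ratios of the 9 members with their site letters ran from 0.669 (*ATG9*) to 1.43 (*ATG15*). RNA level says nothing of the activity of these factors, and no link between them and the members was tested.

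**Figure D4:**
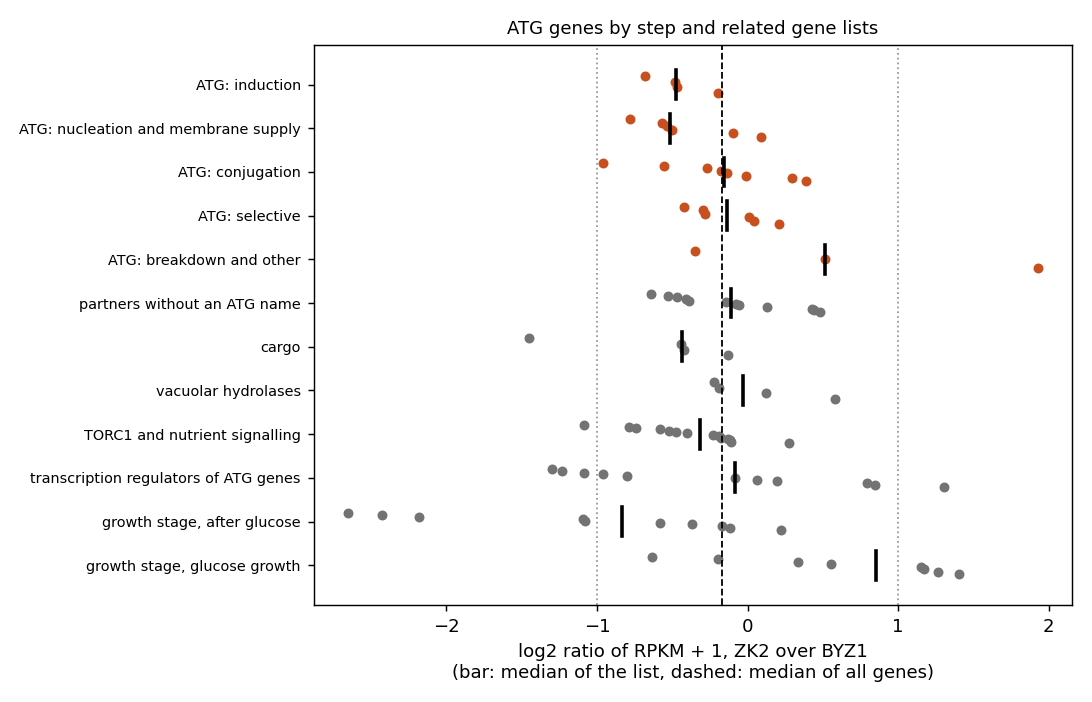
Log2 ratio of RPKM plus 1, ZK2 over BYZ1, of the *ATG* genes by step (orange) and of related gene lists (grey), 1 point per gene that passed the filter, with bars for list medians, the dashed line for the median of all genes (-0.17) and dotted lines at the thresholds of -1 and 1. Step medians run from -0.52 for nucleation and membrane supply to 0.52 for breakdown and other. The latter list holds 3 genes, and its median is the value of *ATG15*. The medians of the growth stage lists lie farther out, at -0.83 and 0.85.

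Markers of growth stage differed between the libraries more than the *ATG* genes did. Of 10 genes used after glucose is spent, 5 were called lower in ZK2 (10.3% of all genes) and 0 higher (7.91%). Their median log2 ratio was -0.83, and their summed levels were 20513 RPKM in ZK2 and 38985 in BYZ1. *SPG1*, needed for survival at high temperature in stationary phase, had 335 RPKM in ZK2 and 2113 in BYZ1. *ADH2*, which oxidizes ethanol, had 2807 RPKM in ZK2 and 15126 in BYZ1, the largest part of the difference in the sums. *PCK1*, the gluconeogenic enzyme, had the highest ratio of this list, with 8131 RPKM in ZK2 and 6972 in BYZ1. *ICL1* came next, at a ratio of 0.923 (0.902 to 0.945). Of 9 genes of growth on glucose, 8 passed the filter. Of these, 4 were called higher in ZK2 (7.91% of all genes) and 0 lower (10.3%), with a median of 0.85. By log2 ratio, 6 of the 8 lay above 0 and 2 below, where 59.8% of all genes lay. Among those below was the cyclin gene *CLN2*, with 31.0 RPKM in ZK2 and 48.6 in BYZ1 (ratio 0.638, 0.539 to 0.753). Summed levels of the 9 were 717 RPKM in ZK2 and 379 in BYZ1. *RNR1*, a ribonucleotide reductase, had 271 RPKM in ZK2 and 102 in BYZ1. The glucose transporter gene *HXT1*, which did not pass the filter, had 1.92 in ZK2 and 4.36 in BYZ1, on 15 and 35 reads. The 9 sporulation genes stayed at 7.34 RPKM or less in ZK2 and 36.8 or less in BYZ1. *IME1*, the starter of meiosis, had 10 reads in ZK2 and 187 in BYZ1 (ratio 0.0548, 0.0259 to 0.103), whereas *IME2*, a kinase that acts after it, had 65 in ZK2 and 34 in BYZ1 (1.96, 1.28 to 3.06). The part of growth stage in the *ATG* values was not tested.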

How the data were processed

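Poly(A) libraries of 1 RNA sample per strain were sequenced (Illumina HiSeq). For BYZ1 the authors filtered reads, aligned them to reference genes with SOAPAligner (version not given in the sources used here) and counted uniquely mapped reads, from RNA of pooled cultures. The aligner of ZK2 and the strand of the counts are not given in the sources used here. The deposited counts were not normalized, and a gene absent from a table had 0 reads. The deposited RPKM was divided by coding length and by total gene reads, and the deposited percent of each gene covered was used as given. The build named in the submitters' processing notes is sacCer2. Names, neighbours and promoter windows came from R64, and all 27 symbols matched.

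Genes that reached an RPKM of 10 in either library were compared as log2 of RPKM plus a pseudocount of 1, which understates the change of low genes, and called at 1 or more in size. The libraries had about 4570000 (ZK2) and 4690000 (BYZ1) gene reads, and with 1 each no test was made. Ratio intervals were exact Clopper-Pearson 95% intervals given the summed count. TMM factors were from edgeR 4.0.16 in R 4.3.3, and the rest was done in Python 3.11.15 with pandas 2.3.3, numpy 2.4.6 and scipy 1.17.1. The steps were tested on simulated counts. All members are named, and of each other list the 2 highest and 2 lowest genes could be. *ATG31*, *ATG34*, *VPS30* and *SNX4* were named outside this rule. *PHO23*, *SIN3*, *RPD3*, *GLN3*, *GAT1*, *LYS2*, the neighbours and the list of transporters under the other observations were named after their values were seen. The members and lists were chosen with earlier results of these data known. Alternatives were other scales (TMM, median of gene ratios, totals without the 14 highest genes), pseudocounts of 0.1 and 5, no filter or an RPKM of 50, and a 1.5-fold threshold. Intervals against the TMM scale were added after seeing the data.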

Additional observations from a re-analysis of the deposited data

How the results depend on the processing

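With 1 library per strain, the error between cultures is unknown, no replicate could be left out, and intervals cover counting alone. No paired analysis was possible because each strain has 1 library and no replicate numbers are shared. *ATG22* was called higher in ZK2 and was the only member so called under each of the 8 alternatives run. Members called lower numbered 1 with a pseudocount of 0.1 (*ATG16*) and 3 at a 1.5-fold threshold (*ATG13*, *ATG14* and *ATG16*), against 0 as reported. Members with a ratio interval below the scale numbered 14, and 9 on the TMM scale. Of all genes, 524 were called lower as reported, 339 with the TMM factor, 348 with the median of the gene ratios, 274 with a filter at an RPKM of 50 and 1323 at 1.5-fold, where 816 rather than 402 were called higher. The median log2 ratio of the members was -0.27 as reported, -0.09 with TMM, -0.10 with the median of the gene ratios and -0.09 for the 11 members with an RPKM of 50 or more. Filters and thresholds leave a ratio as it is. Under the 5 scales and pseudocounts that can change it, 10 of 135 single-member values moved beyond the counting interval, all 10 of them with TMM or the median of the gene ratios. The sign of the log2 ratio changed for *ATG3*, *ATG4* and *ATG27* on both of these scales (with TMM to 0.16, 0.03 and 0.08) and for *ATG21* without the highest genes, all members whose ratio interval included 1. Members under about 60 reads in a library, *ATG10*, *ATG12*, *ATG14* and *ATG16*, are limited by depth.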

Other observations

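Because *ATG22* acts in amino acid export from the vacuole, other vacuolar amino acid transporter genes were listed after its value was seen, so the list gives no independent support. Of 12 such genes, 11 were listed in a table and 10 passed the filter. Of these, 9 had a log2 ratio above 0, against 2042 of all 5080 genes, and 1 was called higher in ZK2, against 7.91%. Their median was 0.41, against -0.17 for all genes. *AVT1*, which imports neutral amino acids into the vacuole, had 104 RPKM in ZK2 and 47.2 in BYZ1, a ratio of 2.21 (1.96 to 2.49). *AVT4*, an exporter, had 70.3 RPKM in ZK2 and 48.2 in BYZ1 (1.46, 1.30 to 1.64), and *AVT3*, also an exporter, had 247 in ZK2 and 236 in BYZ1 (1.04, 0.985 to 1.11). *AVT6*, which exports acidic amino acids, had 79.4 RPKM in ZK2 and 133 in BYZ1 (0.597, 0.533 to 0.668), the one member of the list below 0. The ratio of *ATG22*, 3.97, was above that of every transporter on the list that passed the filter.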
